A study of Mus musculus with 58 samples.

Results

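Long autosomal stretches with more H3K27ac in Setd2-/- oocytes were collected from the H3K27ac profiles of full-grown mouse oocytes. Each autosome was divided from its start into windows of 5 kb. A window was kept when its mean over both tracks was at least about 0.38 RPKM, the mean of the genome, and when log2 of knockout over control, with 0.1 RPKM added to each, was at least 1. Adjacent kept windows were joined, and runs of 6 or more windows (30 kb or more) were taken as stretches, leaving out one segment of chromosome 2 between 77.7 and 77.87 Mb. This gave 458 stretches out of 13993 autosomal runs of any length. They held 3626 windows and 18.13 Mb, or 0.733% of the autosomal length. Membership depended on where the windows began. With windows shifted by 2.5 kb the same rule gave 461 stretches, but these overlapped only 294 of the 458.

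The series holds 58 samples in 34 groups, in which histone marks of mouse oocytes and embryos were mapped by STAR ChIP-seq, a form of chromatin immunoprecipitation that needs few cells. Used here were full-grown oocytes labelled Setd2-/-, from a maternal knockout, and full-grown oocytes labelled Setd2+/- as the control, so the control carries 1 mutant allele. The labels' general protocol describes females aged 8 weeks, and the way the knockout was made is not given in the sources used here. Each genotype had 2 samples that the authors pooled into 1 track, so there was no spread between replicates and no test, and differences between animals or libraries cannot be told apart from genotype. RPKM scales the reads of a bin by its length and by the size of the library. The Setd2-/- track held 29367645 reads and the Setd2+/- track 30694806, and the autosomal mean was 0.387 RPKM in Setd2-/- and 0.374 RPKM in Setd2+/-. Such values are relative to library size, so absolute levels of H3K27ac are not measured.

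H3K27ac is an acetyl mark on histone H3 that CBP and p300 place and that marks active promoters and enhancers in most cells. SETD2 is the methyltransferase that trimethylates lysine 36 of histone H3 (H3K36me3) along transcribed genes. In growing oocytes H3K36me3 lies over transcribed regions and guides DNA methylation by DNMT3A and DNMT3L, and it is known to restrain PRC2, the complex that places H3K27me3. The series' design sets knockout against control oocytes to ask how histone modifications depend on one another. Placing genes in the stretches needs an annotation of the build of the tracks, mm9, which was not used here. Stretches are therefore given by their mm9 coordinates, with no gene named and no marker of the oocyte checked.

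Both tracks chose the stretches, so their levels describe the choice and are not evidence of a difference. Among the 204478 autosomal windows past the level limit, 24750 (12.1%) were at least 2-fold higher in Setd2-/-, and the stretches held 14.7% of those gaining windows. On X, which the rule leaves out, 1.87% of such windows were at least 2-fold higher and 2 runs were long enough. Most gaining windows stood alone or in short runs, and 9072 runs were a single window. There were 292 runs of 5 windows, 162 of 6 and 104 of 7, so the limit of 30 kb cut through a smooth distribution with no gap. Length had a median of 35 kb (quartiles 30 and 45 kb). Of the 458 stretches, 85 were 50 kb or longer, 10 were 75 kb or longer and 2 exceeded 100 kb.

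**Figure D1:**
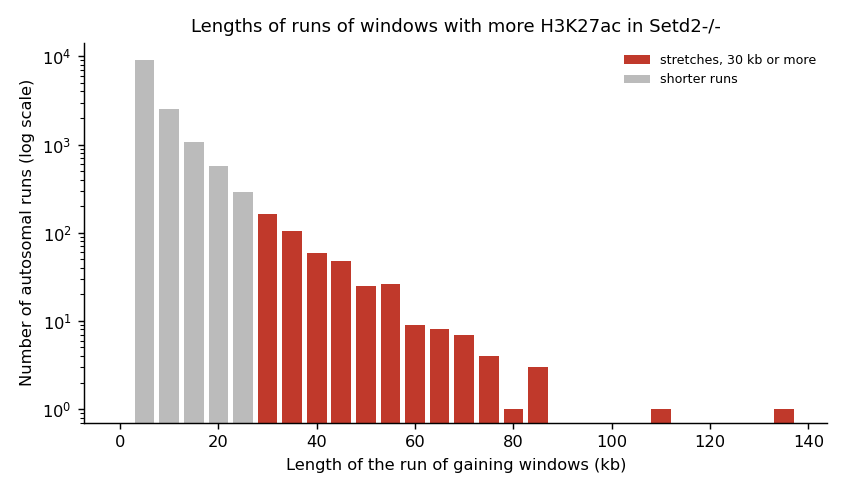
Number of autosomal runs of windows at least 2-fold higher in the Setd2-/- pool (log axis) by length in kb, with the 458 stretches of 30 kb or more in red and shorter runs in grey. Counts fall steadily from 9072 single windows to 162 runs of 30 kb, and 2 runs stand apart at 110 and 135 kb.

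The stretches had ordinary H3K27ac in control oocytes and high H3K27ac in knockout oocytes. The median stretch had 1.19 RPKM in Setd2-/- (quartiles 1.04 and 1.34) and 0.370 RPKM in Setd2+/- (quartiles 0.304 and 0.430). Of all autosomal windows, 94.7% lay below the median stretch in Setd2-/-, against 56.2% in Setd2+/-. The knockout level was at least 2 times the autosomal mean in 455 stretches and at least 3 times in 259. In Setd2+/- only 1 stretch reached 2 times the autosomal mean, and 238 lay below that mean. The limits on level and ratio favour such values, so these counts follow in part from the rule. Gaining windows outside the stretches had medians of 1.03 RPKM in Setd2-/- and 0.346 RPKM in Setd2+/-. Knockout over control had a median of 3.27-fold and ran from 2.48 to 7.27-fold, with 41 stretches at 4-fold or more. In 399 stretches the lowest 5 kb window in knockout was above the highest in control, and in 59 these ranges overlapped. Each of these windows was kept for being at least 2-fold higher in knockout, so this separation was largely fixed by the rule. The same share was not computed for other regions.

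**Figure D2:**
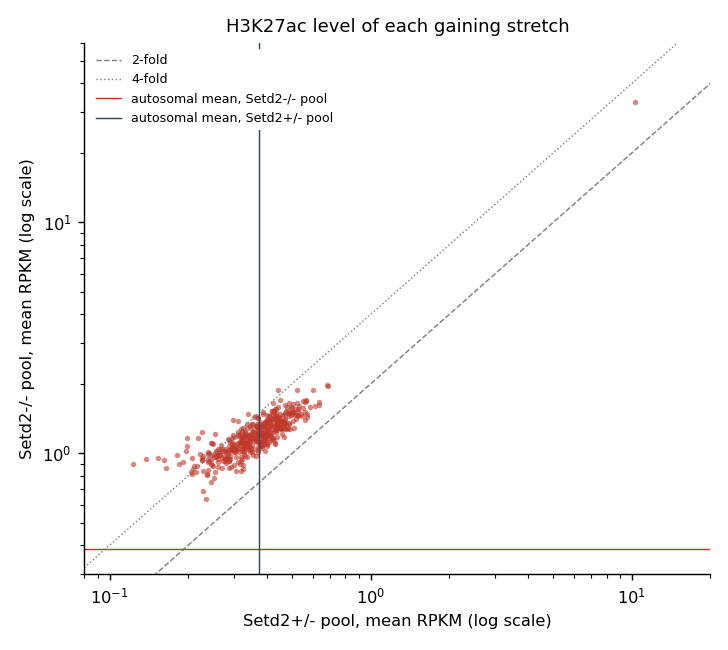
Mean RPKM of each of the 458 stretches in the Setd2-/- pool (vertical, log axis) against the Setd2+/- pool (horizontal, log axis), with lines at 2-fold, 4-fold and the autosomal mean of each pool. All points but 1 form a cloud around 1.19 RPKM in Setd2-/- and 0.370 RPKM in Setd2+/-. The exception is the stretch at the start of chromosome 11.

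Stretches that were richer in control were also richer in knockout, with Spearman's rho of 0.842 over the 458 stretches, a description of points that share both libraries and that the fold limit ties together. Length and the size of the difference were almost unrelated (rho 0.0946). Larger differences were more frequent in windows inside stretches than in other gaining windows, a description without a test. At least 4-fold higher in knockout were 377 of 3626 member windows (10.4%) and 1005 of the 21124 others (4.76%), and control medians were close, 0.339 RPKM in members and 0.346 RPKM in others. Pooled over all member windows, the mean was 1.35 RPKM in Setd2-/- and 0.412 RPKM in Setd2+/-, or 3.27-fold. Without the stretch at the start of chromosome 11 the mean was 1.21 RPKM in Setd2-/- and 0.369 RPKM in Setd2+/-, or 3.28-fold.

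The longest stretch lay on chromosome 18 from 38700001 to 38835000, over 135 kb, with 1.49 RPKM in Setd2-/- and 0.490 RPKM in Setd2+/-. Its 5 kb windows ran from 0.687 to 2.18 RPKM in knockout and from 0.248 to 0.952 RPKM in control, so these ranges overlapped, although each window was at least 2-fold higher by the rule. Of its 135 blocks of 1 kb, 132 were higher in knockout. The second, on chromosome 16 from 22015001 to 22125000, spanned 110 kb at 1.14 RPKM in Setd2-/- and 0.346 RPKM in Setd2+/-. Here 108 of 110 blocks were higher in knockout, and the difference of 3.28-fold had a 95% counting interval of 3.08 to 3.52. These exact binomial (Clopper-Pearson) intervals reflect the number of reads alone, since reads that share an amplified molecule are not independent. Nor do they allow for the choice of stretches, made for a high ratio in these same reads.

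Next came 3 stretches of 85 kb. On chromosome 10 from 75140001 to 75225000 the means were 1.28 RPKM in Setd2-/- and 0.323 RPKM in Setd2+/- (3.97-fold, 3.69 to 4.30). On chromosome 15 from 25660001 to 25745000 the Setd2-/- pool had 1.10 RPKM and the Setd2+/- pool 0.297 RPKM. On chromosome 12 from 111690001 to 111775000 the Setd2-/- pool had 1.02 RPKM and the Setd2+/- pool 0.327 RPKM. All 3 had control values below the autosomal mean of 0.374 RPKM. Apart from 80 kb at the start of chromosome 11, 4 stretches of 75 kb completed the longest 10. On chromosome 7, the one from 77500001 to 77575000 had 1.04 RPKM in Setd2-/- and 0.260 RPKM in Setd2+/-, and the one from 29670001 to 29745000 had 1.53 RPKM in Setd2-/- and 0.418 RPKM in Setd2+/-. On chromosome 9 from 103390001 to 103465000 there were 1.04 RPKM in Setd2-/- and 0.264 RPKM in Setd2+/-. Chromosome 1 from 37485001 to 37560000 had 1.21 RPKM in Setd2-/- and 0.376 RPKM in Setd2+/-. The 10 longest differed by 3.04 to 4.02-fold, beside the median of 3.27-fold over all stretches.

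**Figure D3:**
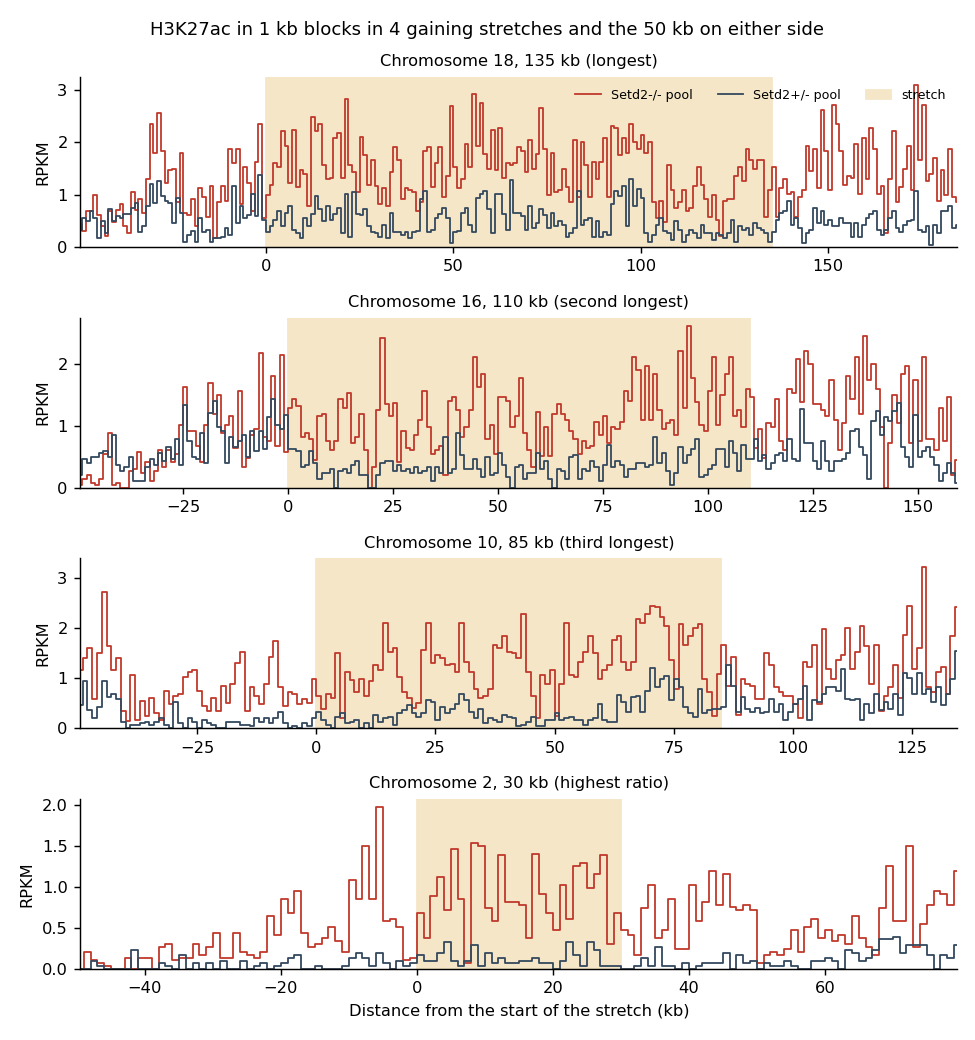
RPKM in blocks of 1 kb (vertical) for the Setd2-/- pool (red) and the Setd2+/- pool (dark), by distance in kb from the start of the stretch, for the 3 longest stretches and the one with the highest ratio; shading marks the stretch. Knockout signal is above control along nearly all of each shaded part, 132 of 135 blocks in the longest, and it is also above control in much of the 50 kb beside it.

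The highest log2 ratios, with 0.1 RPKM added to each pool, belonged to stretches that were poor in control, not to ones that were unusually rich in knockout. The limit on the mean of both tracks asks for more knockout signal where control is poor. This link therefore follows in part from the rule. The first was on chromosome 2 from 67390001 to 67420000, with 790 reads (0.896 RPKM) in Setd2-/- and 113 reads (0.123 RPKM) in Setd2+/-, a 7.27-fold difference (5.99 to 8.98). The next was on chromosome 9 from 111795001 to 111825000, with 831 reads (0.942 RPKM) in Setd2-/- and 127 reads (0.138 RPKM) in Setd2+/-, or 6.82-fold. In both, every knockout window was above every control window, as in 399 of the 458 stretches. On chromosome 5, the 60 kb from 116675001 to 116735000 had 1.16 RPKM in Setd2-/- and 0.199 RPKM in Setd2+/- (5.86-fold, 5.26 to 6.59), with 59 of 60 blocks of 1 kb higher in knockout. Chromosome 2 from 73965001 to 73995000 followed at 0.956 RPKM in Setd2-/- and 0.154 RPKM in Setd2+/-. Its plain ratio of 6.21-fold was above that of the stretch on chromosome 5, but its log2 ratio was 2.06 against 2.08.

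The other 6 of the 10 highest had 0.934 to 1.24 RPKM in Setd2-/- and 0.162 to 0.225 RPKM in Setd2+/-. They lay on chromosome 15 from 98665001 to 98700000, chromosome 18 from 12330001 to 12360000, chromosome 5 from 116385001 to 116415000, chromosome 8 from 111445001 to 111480000, chromosome 14 from 77990001 to 78020000 and chromosome 2 from 44915001 to 44950000. Their folds ran from 5.18 to 5.78. None of the 10 exceeded 1.24 RPKM in knockout, near the median of the stretches, and 9 of them were 30 or 35 kb long.

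The richest stretch in knockout was on chromosome 11 from 3020001 to 3100000, near the start of the assembled chromosome, with 33.1 RPKM in Setd2-/- and 10.3 RPKM in Setd2+/-. It held 77656 reads in Setd2-/- and 25332 reads in Setd2+/-, and no single bin of 100 bp held as much as 1% of either. Bins with over 10 knockout reads numbered 11319 of 181300 in all stretches, and 10637 of 180500 without it. Bins with over 10 control reads numbered 700 in all stretches and 140 without it. With at most 10 reads counted per bin its log2 ratio was 0.24 instead of 1.67, and it was the only 1 of the 458 stretches to lie below 2-fold under that limit. The limit acts on most bins of this stretch in both tracks, so it brings the ratio towards 1 by construction. The next 4 in knockout were on chromosome 13 from 41095001 to 41125000 (1.98 RPKM in Setd2-/-, 0.680 RPKM in Setd2+/-), chromosome 19 from 10970001 to 11000000 (1.96 RPKM in Setd2-/-, 0.687 RPKM in Setd2+/-), chromosome 5 from 136455001 to 136500000 (1.88 RPKM in Setd2-/-, 0.521 RPKM in Setd2+/-) and chromosome 2 from 136905001 to 136935000 (1.88 RPKM in Setd2-/-, 0.604 RPKM in Setd2+/-). These 4 were also above the autosomal mean in control. On chromosome 19 the 10-read limit brought the log2 ratio to 1.01 instead of 1.39.

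At the edge of the rule, the 30 kb stretches with the smallest difference lay on chromosome 14 from 121645001 to 121675000 (0.635 RPKM in Setd2-/-, 0.234 RPKM in Setd2+/-), chromosome 17 from 95150001 to 95180000 (0.841 RPKM in Setd2-/-, 0.318 RPKM in Setd2+/-) and chromosome 8 from 26455001 to 26485000 (1.17 RPKM in Setd2-/-, 0.464 RPKM in Setd2+/-), with log2 ratios of 1.14, 1.17 and 1.17. Just outside it, the runs of 25 kb with the largest difference were on chromosome 9 from 3015001 to 3040000 (8.88 RPKM in Setd2-/-, 0.951 RPKM in Setd2+/-), chromosome 9 from 97920001 to 97945000 (0.919 RPKM in Setd2-/-, 0.0719 RPKM in Setd2+/-) and chromosome 2 from 60695001 to 60720000 (0.988 RPKM in Setd2-/-, 0.119 RPKM in Setd2+/-), with log2 ratios of 3.10, 2.57 and 2.31. Length and not the size of the difference kept these runs out. The run on chromosome 9 at 3015001 lies near the start of the assembled chromosome, like the richest stretch on chromosome 11. Its ratio with at most 10 reads per bin was not computed.

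Blocks of 1 kb, finer than the windows of the rule, show how evenly the selected difference ran along the stretches. Of 18130 blocks of 1 kb, 17736 (97.8%) were higher in knockout, beside 45.7% of all autosomal blocks, and in 202 stretches every block was. The 45.7% covers all sequence, also below the level limit, and counts ties and empty blocks as not higher. The rule had kept the 5 kb windows around the blocks of the stretches for higher knockout signal, so a high share there was largely fixed by the choice. Bins of 100 bp without a read made up 25.1% in Setd2-/- and 48.8% in Setd2+/-, while over all autosomes they made up 66.4% in Setd2-/- and 56.0% in Setd2+/-. The richest 1% of bins held 14.5% of the reads in Setd2-/- and 15.6% in Setd2+/-. Without the stretch at the start of chromosome 11 these shares were 5.95% in Setd2-/- and 7.26% in Setd2+/-, beside 13.0% in Setd2-/- and 8.51% in Setd2+/- over all autosomes. In no stretch did a single bin hold over 20% of the knockout reads, and the highest such share was 16.8%.

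Over 1 kb blocks, Pearson's r between the knockout and control profiles of a stretch had a median of 0.409 among the 458 stretches (quartiles 0.259 and 0.517). The median stretch had 418.5 control reads over all its blocks, and how far such counts alone lower r was not tested. To see where along a stretch the difference lay, blocks were ordered by control reads in alternate bins of 100 bp and measured in the other bins, leaving out the stretch at the start of chromosome 11. The 1131 blocks without control reads in the ordering bins had 0.875 RPKM in Setd2-/- and 0.180 RPKM in Setd2+/-, or 4.86-fold. The 1780 blocks at 2 times the autosomal control mean or more had 1.68 RPKM in Setd2-/- and 0.646 RPKM in Setd2+/-, or 2.61-fold. The fold was thus larger in the poorer blocks, but the difference in RPKM was larger in the richer ones, 1.04 against 0.695. Both sets of bins had served to choose the stretches. The limits on level and ratio favour both patterns, so they follow in part from the rule. When each of these 457 stretches was cut into 10 equal parts, the parts had means of 1.16 to 1.23 RPKM in Setd2-/- and 0.355 to 0.417 RPKM in Setd2+/-. The log2 ratio of the parts was lowest at the ends, 1.42 in the first part and 1.35 in the last, and highest in the fourth at 1.54.

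Most stretches ended where the difference became smaller and not where it was gone. At 729 of 916 ends the next window was rich enough but under 2-fold, at 94 it was 2-fold or more but too poor, and at 93 it missed both limits. The next window was still higher in knockout at 894 ends, with a median of 0.861 RPKM in Setd2-/- and 0.522 RPKM in Setd2+/-, though that window had to miss a limit by construction. Over the 50 kb on either side the mean was 0.834 RPKM in Setd2-/- and 0.462 RPKM in Setd2+/-, a log2 ratio of 0.73. This flank was higher in knockout for 456 of 458 stretches and at least 2-fold higher for 58. The same shares were not computed for flanks of other regions. Over all autosomes, 45.7% of blocks of 1 kb, a smaller unit that also takes in empty and poor sequence, were higher in knockout. In control, 350 stretches lay below their own flanks, with a median of 0.807 times the flank, and in knockout 422 lay above them, with a median of 1.43 times. Both directions follow in part from the rule, which kept windows for a high ratio and ended a stretch where it failed, so they are given as a description.

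Around the stretches, median H3K27ac was higher in knockout out to 500 kb. Grouping every autosomal window by its distance to the nearest stretch, the median was 0.571 RPKM in Setd2-/- and 0.386 RPKM in Setd2+/- at 55 to 100 kb, and 0.374 RPKM in Setd2-/- and 0.327 RPKM in Setd2+/- at 205 to 500 kb. At 505 to 1000 kb it was 0.293 RPKM in Setd2-/- and 0.307 RPKM in Setd2+/-. Beyond 5 Mb it was 0.197 RPKM in Setd2-/- and 0.307 RPKM in Setd2+/-. Means stayed higher in knockout farther out than medians. They were 0.432 RPKM in Setd2-/- and 0.364 RPKM in Setd2+/- at 505 to 1000 kb. At 1005 to 2000 kb they were 0.385 RPKM in Setd2-/- and 0.362 RPKM in Setd2+/-. Windows called 2-fold higher or lower are those whose log2 ratio, with 0.1 RPKM added, was at least 1 in size. The share of windows past the level limit that were at least 2-fold higher in knockout was 29.9% at 5 to 50 kb, 17.6% at 205 to 500 kb, 10.6% at 1005 to 2000 kb and 5.94% beyond 5 Mb, on either side of the background of 12.1%. At the same distances, windows at least 2-fold lower in knockout made up 0.253%, 3.83%, 11.2% and 19.8%, beside 13.5% of all. Outside the stretches the medians spanned 0.191 to 0.782 RPKM in Setd2-/- and 0.281 to 0.431 RPKM in Setd2+/-. The stretches come from the same 2 tracks, so these are values along the genome and not a test.

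**Figure D4:**
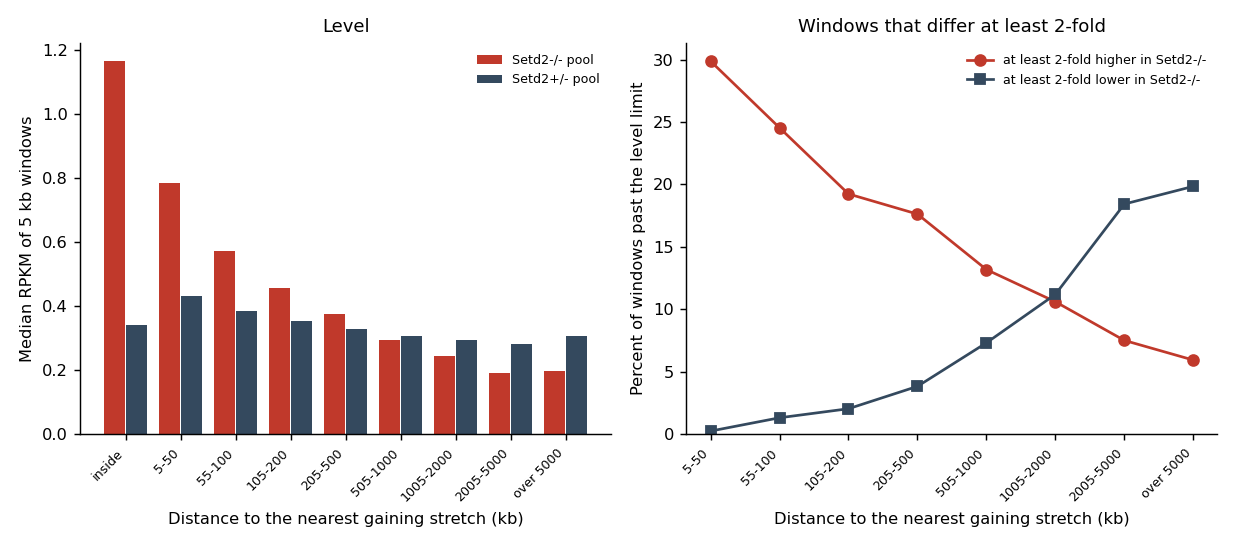
Left, median RPKM of 5 kb autosomal windows in the Setd2-/- pool (red) and the Setd2+/- pool (dark) by distance in kb to the nearest gaining stretch. Right, percent of windows past the level limit that were at least 2-fold higher (red) or lower (dark) in Setd2-/-. Knockout medians are 1.16 RPKM inside and 0.191 RPKM at 2005 to 5000 kb, and the losing share exceeds the gaining share from 1005 kb outwards.

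Blocks of 1 Mb showed the same contrast. Of 2463 blocks, 342 held the start of a stretch. Outside the stretches themselves, those blocks had medians of 0.569 RPKM in Setd2-/- and 0.395 RPKM in Setd2+/-, whereas the 2121 blocks in which no stretch started had 0.339 RPKM in Setd2-/- and 0.396 RPKM in Setd2+/-. The control medians of both kinds of block were nearly equal. For 435 of 458 stretches the rest of the block was higher in knockout, but for none was it 2-fold higher. Stretches in the same block count the same surroundings again, and 197 stretches shared 84 blocks. These shares were not computed for the blocks in which no stretch started. The median log2 ratio outside stretches was 0.461 in blocks with a stretch and -0.0216 in the 2121 blocks in which none started.

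Stretches with less H3K27ac in knockout were found elsewhere. The mirror rule gave 293 autosomal losing stretches over 10.48 Mb, with medians of 0.219 RPKM in Setd2-/- and 0.863 RPKM in Setd2+/-. The longest was 70 kb, and 27 reached 50 kb, against 85 gaining ones. Of all 2463 blocks of 1 Mb, 342 held a gaining stretch and 232 a losing one. Both kinds were held by 3 blocks, 0.877% of those with a gaining stretch and 1.29% of those with a losing one. Both kinds come from the ratio of the same 2 tracks, and their separation was not tested. From a gaining stretch to the nearest losing stretch the median distance was 7932.5 kb. The closest pair lay 50 kb apart on chromosome 4, with the gaining stretch from 108275001 to 108305000 at 1.31 RPKM in Setd2-/- and 0.387 RPKM in Setd2+/-, and the losing one from 108155001 to 108225000 at 0.273 RPKM in Setd2-/- and 0.962 RPKM in Setd2+/-.

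Gaining stretches clustered in places. Of 439 distances between neighbours, 63 were 100 kb or less and 12 were a single window of 5 kb, while the median was 1665 kb. In 84 blocks of 1 Mb there were 2 or more, holding 197 stretches. The block of chromosome 7 from 134000001 to 135000000 had 5, between 1.08 and 1.37 RPKM in Setd2-/- and between 0.329 and 0.457 RPKM in Setd2+/-. Its last 3 ran from 134845001 to 134950000 with gaps of 5 and 10 kb. Among pairs of neighbouring blocks on the other autosomes, 2 pairs held 7 each. Those on chromosome 5, between 115240001 and 116735000, had 0.828 to 1.45 RPKM in Setd2-/- and 0.197 to 0.487 RPKM in Setd2+/-, and included 2 of the 10 highest ratios. Those on chromosome 15, between 99145001 and 100650000, had 0.892 to 1.65 RPKM in Setd2-/- and 0.246 to 0.524 RPKM in Setd2+/-. Outside its 5 stretches, the block of chromosome 7 had 0.831 RPKM in Setd2-/- and 0.450 RPKM in Setd2+/-.

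Every autosome carried stretches, in unequal amounts. Chromosome 5 had the most, 49 stretches over 1.30% of its length, followed by chromosome 15 with 29 over 1.24%, chromosome 8 with 43 over 1.23%, chromosomes 10 and 11 with 1.15% each, and chromosome 7 with 1.02%. Chromosome 1 had 16 over 0.294%, chromosome 14 had 11 over 0.304%, and chromosome 6 had 12 over 0.351%. Chromosomes with a larger share of gaining windows tended to have more of their length in stretches, with rho of 0.875 over 19 autosomes, 2 quantities from the same windows. Chromosome 17 had the highest share of gaining windows, 16.9%, but only 0.756% of its length in stretches. Chromosome 15, with a gaining share of 12.6%, had 21.7% of its gaining windows in stretches, the highest of all autosomes. With each autosome cut into 3 equal parts, the distal part, away from the centromere, held 228 stretches (49.8%), beside 44.7% of the gaining windows, the middle part 128 (27.9%), beside 28.9% of those windows, and the proximal part 102 (22.3%), beside 26.4%. Median log2 ratios of the stretches lay between 1.39 and 1.57 on every autosome. With at most 10 reads per bin chromosome 15 was first, at 1.05%, and chromosome 5 had 0.941%.

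**Figure D5:**
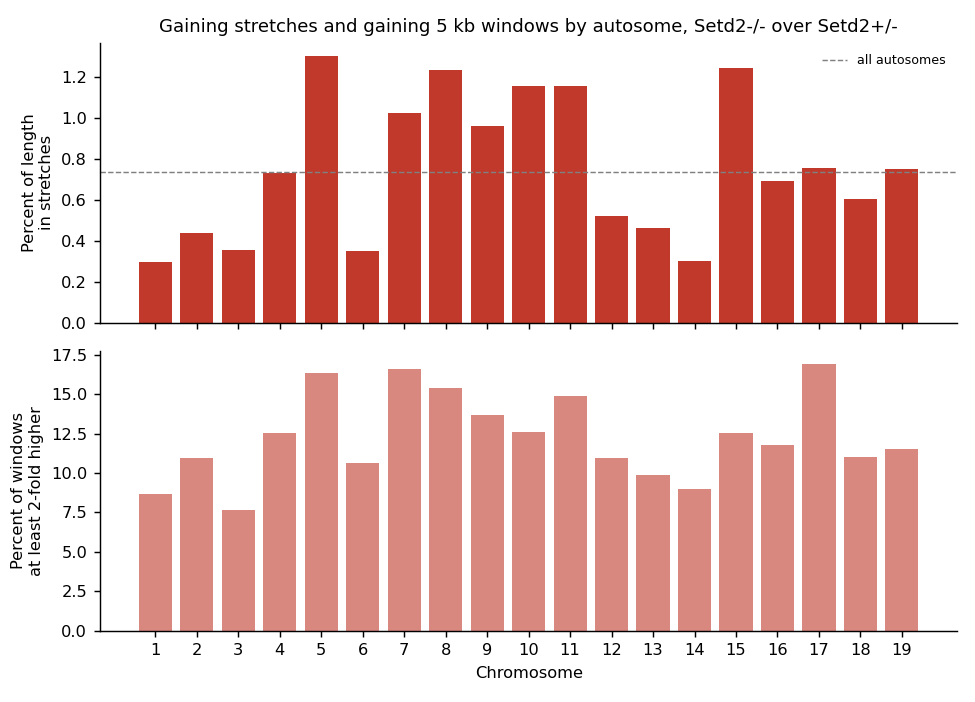
Percent of each autosome's length in gaining stretches (top, dashed line at 0.733% for all autosomes) and percent of its windows past the level limit that were at least 2-fold higher in Setd2-/- (bottom). Chromosomes 5, 15 and 8 lead in length, from 1.30% to 1.23%, while chromosome 17 leads in windows with 16.9%.

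Stretches were also chosen on alternate bins of 100 bp and measured in the bins between them. The choice then gave 376 stretches, which overlapped only 259 of the 458 and 53.0% of their length. In the bins not used to choose them all 376 were higher in knockout and 352 at least 2-fold higher. Their mean in those other bins was 1.38 RPKM in Setd2-/- and 0.454 RPKM in Setd2+/-, a log2 ratio of 1.41, beside 1.53 in the bins that chose them. Single windows held less well, and 78.0% of 2850 were at least 2-fold higher in the other bins. Both sets of bins alternate along the same libraries, so reads that share an amplified molecule can fall in both. They are therefore not independent, and the choice favours high shares in the other bins too. The same shares were not computed for other regions. The comparison bears at most on the unevenness of reads and not on differences between animals.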

How the data were processed

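STAR ChIP-seq with an antibody against H3K27ac was analysed in 4 samples, 2 per genotype, which the labels assign to 1 processed file per genotype. The deposited values are RPKM per bin of 100 bp, rounded by the authors to 0.01. Bins with no read are not listed and were taken as 0. The unit was read from the sum of the values. The submitters' processing notes name mm9 and Bowtie2 2.2.2. Duplicate removal, read extension and any input track were not given in the sources used here. Each could change values at repeats. All values were whole multiples of 0.341 RPKM (Setd2-/-) or 0.326 RPKM (Setd2+/-) to within about 0.005, and these give the read numbers.

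Stretches were found on the deposited values by the rule stated in the results. Fold changes in text are ratios of RPKM, and log2 ratios add 0.1 RPKM to each pool, which understates changes of poor regions. Named stretches were the 10 longest, the 10 with the highest log2 ratio, the 5 richest in knockout, and 3 on each side of the limits. The stretches and all comparisons were chosen with earlier results of these data known. Gene lists and markers were not analysed, for want of an mm9 annotation. The code was tested on simulated data. Alternatives changed 1 choice at a time, except that other window sizes also changed the number of windows in a run, to keep the minimum of 30 kb. Figures were drawn with matplotlib 3.10.9, and values computed with SciPy 1.17.1, pandas 2.3.3 and NumPy 2.4.6 under Python 3.11.15.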

Additional observations from a re-analysis of the deposited data

Results flagged for a closer look

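Outside the rule, 4 runs had more H3K27ac in knockout than in control, and each is listed because its signal lies in sequence that the comparisons left out. On X, where 250 of 13343 windows past the level limit (1.87%) were at least 2-fold higher in knockout, 2 runs of 30 kb met the other limits. The one from 7580001 to 7610000 had 1.14 RPKM in Setd2-/- and 0.386 RPKM in Setd2+/-. The one from 166420001 to 166450000, near the end of X, had 3.99 RPKM in Setd2-/- and 0.907 RPKM in Setd2+/-. In the segment of chromosome 2 that the rule leaves out, the run from 77705001 to 77790000 had 6.99 RPKM in Setd2-/- and 0.362 RPKM in Setd2+/-, and the run from 77795001 to 77835000 had 6.07 RPKM in Setd2-/- and 0.309 RPKM in Setd2+/-. These folds of 19.3 and 19.6 lie beyond the 7.27-fold of the highest stretch, but they are not ranked with the stretches. The segment was set apart as a copy-number segment, and no input track was used here. Whether the number of DNA copies there differed between the pools was not tested.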

How the results depend on the processing

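No paired analysis was possible because both samples of a genotype share 1 track. For the same reason no replicate could be left out, and the alternatives for genes were not run without an mm9 annotation. Unrounded RPKM from reads and leaving out the stretch at the start of chromosome 11 were chosen after seeing the data. The number of stretches, 458 with a pooled log2 ratio of 1.501, stayed within 1.5 times under 6 alternatives. It was 367 (log2 ratio 1.49) with equal autosomal means, 322 (1.47) with a median log2 ratio of 0, 344 (1.44) when capping bins at 10 reads, 461 (1.497) with shifted windows, 376 (1.41) on alternate bins, overlapping 259 of the 458, and 467 with unrounded RPKM. The other alternatives change the limits of the rule itself: 759 (1.58) and 18 (1.51) with pseudocounts of 0.01 and 0.5, 763 (1.52) without the level filter and 53 (1.56) at 2 times the level, 1080 (1.37) with 10 kb windows in runs of 3 or more and 47 (1.66) with 2 kb windows in runs of 15 or more, 1115 (1.33) with 1 failing window allowed, 750 (1.49) and 192 (1.52) with runs of 5 or 8 windows, and 1873 (1.16) and 15 (2.04) at 1.5-fold and 3-fold. Over the 458, leaving out the stretch of chromosome 11 gave a log2 ratio of 1.48. The sets of 18, 53 and 47 had pooled means of 5.44, 2.93 and 2.85 RPKM in Setd2-/-, against 1.35 RPKM for the 458. After the stretch of chromosome 11, at 33.1 RPKM, the richest of the 458 had 1.98 RPKM in Setd2-/-. How far such rich sequence sets the log2 ratios of those smaller sets was not tested. In the flanks the log2 ratio of 0.73 was 0.66 over 100 kb, 0.74 by medians and 0.67 when capping bins. The knockout reads in the richest 1% of bins, 14.5%, were 12.4% in 1 kb blocks, 5.95% without the stretch of chromosome 11, and 5.11% for the richest 0.1%. Chromosome 5 held the highest share of stretches by number, 10.7%, and of length, 1.30%, and chromosome 15 the highest with at most 10 reads per bin, 1.05%. Each of 27 named stretches stayed higher in knockout in all 5 settings run on it, and at least 2-fold higher except 6 with a pseudocount of 0.5 and that of chromosome 11 with at most 10 reads per bin. A pseudocount cannot change the direction, and scaling knockout by 0.968 or 0.947 was too small to do so. Only the limit of 10 reads could have reversed a named stretch. Depth, at 560 knockout and 113 control reads or more per stretch, limits which windows pass and so which stretches are found, and the absence of replicates limits all of them.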

Other observations

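A small set of stretches, picked after their values were seen, stood as islands in poor surroundings. In 8 stretches control H3K27ac was at least 2 times that of the 50 kb on either side, with medians of 1.01 RPKM in Setd2-/- and 0.260 RPKM in Setd2+/- inside, and 0.307 RPKM in Setd2-/- and 0.0834 RPKM in Setd2+/- outside. Beside the stretch at the start of chromosome 11 they included those of chromosome 9 at 111795001, with 0.144 RPKM in Setd2-/- and 0.0265 RPKM in Setd2+/- in its flanks, chromosome 14 at 100320001, chromosome 7 at 77500001 and chromosome 2 at 73965001. At the other extreme, 26 stretches had control H3K27ac at 0.5 times that of their flanks or less. There the medians were 0.991 RPKM in Setd2-/- and 0.246 RPKM in Setd2+/- inside, and 0.931 RPKM in Setd2-/- and 0.604 RPKM in Setd2+/- outside. The lower control values inside are what these 26 were picked for. Among stretches without the one of chromosome 11, bins with an even number of reads made up 53.8% of occupied bins in Setd2-/- and 40.4% in Setd2+/-, beside 53.0% in Setd2-/- and 42.9% in Setd2+/- over all autosomes. The part of this difference between the tracks in the results was not tested.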
